A study of Mus musculus with 7 samples.

Results

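The thyroid hormone axis was followed here through 9 genes: *Crym*, the receptors *Thra* and *Thrb*, the deiodinases *Dio2* and *Dio3*, the transporters *Slc16a10* and *Slco1c1*, and the target genes *Klf9* and *Hr*. *Crym* was chosen for the size of its difference between the control libraries and those labelled Sox9, and the other 8 genes were added for their known roles in the same hormone pathway. All 9 were found by their Ensembl identifiers among the 38124 genes of the count table. Since the value that chose *Crym* comes from the comparison of these same libraries, its difference between the groups is described below without a test.

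The libraries came from embryonic mouse neocortex, and the comparison asks which genes differ between cells that carried a Sox9 expression construct and cells that carried a control construct. Every embryo was heterozygous for *Tis21*-CreERT2, an allele in which a tamoxifen-dependent Cre recombinase takes the place of the first exon of *Tis21*, and every mother received tamoxifen, so that Cre was active in apical radial glia that generate basal progenitors and in the basal progenitors themselves. Neocortex was electroporated *in utero* at E13.5 and collected 48 hr later at E15.5, and the cells with the strongest red fluorescence (High RFP) were sorted by FACS from pooled embryos of several mothers. The control construct carried a floxed membrane GFP followed by nuclear RFP (3 libraries, replicates 1, 2 and 4), and the conditional Sox9 expression construct carried Sox9 ahead of the nuclear RFP behind the same kind of floxed cassette (4 libraries, replicates 1 to 4), both driven by the pCAGGS promoter. All groups thus share the Cre allele, the tamoxifen, the electroporation and the sort. *Sox9*, the gene placed on the expression construct, was at 34.5, 88.8 and 67.7 CPM in the controls and at 50.6, 41.0, 30.9 and 37.0 CPM in the Sox9-labelled libraries (log2 fold change -0.68, edgeR adjusted p = 0.0493). By qPCR on sorted cells, the authors reported the highest relative *Sox9* mRNA in High RFP cells given the Sox9 construct. How fully reads from the construct were counted on *Sox9* here was not tested. The *Sox9* mRNA counted here was not higher under the Sox9 label, and the groups are called by their labels throughout. Under the same label *Olig1* and *Olig2*, transcription factors of oligodendrocyte precursors, were called higher (log2 fold changes 3.83 and 4.44, edgeR adjusted p = 0.00154 and 0.00371), and *Eomes*, which marks intermediate progenitors, was called lower (-2.25, adjusted p = 4.9e-05). CPM are counts scaled to a common library size by the TMM method.

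Between 4429704 and 12907778 counts fell on genes per library, so that 3 counts, the limit that a count of 0 allows, correspond to 0.26 to 0.627 CPM. This limit covers counting error only, since amplified reads without molecular identifiers are not independent molecules. The lower end of depth, and the larger number of genes with any count (24219 to 27370 against 23387 to 23791), were on the Sox9 side. Correlations between libraries in log2 CPM lay between 0.916 and 0.973. The labelled tissue was checked with marker genes, and summed radial glia markers lay at 404 to 819 CPM in the controls and 203 to 321 CPM in the Sox9-labelled libraries, with intermediate progenitor markers at 243 to 267 and 154 to 181 CPM.

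Thyroid hormone is made in the thyroid gland as the prohormone T4 and the active hormone T3. It enters brain cells through membrane transporters, is activated by one deiodinase and inactivated by another, and acts in the nucleus through receptors that bind DNA, repress their targets without hormone and activate them with it. Mu-crystallin, the product of *Crym*, holds T3 in the cytosol together with NADPH, and is also known as ketimine reductase, an enzyme of lysine breakdown whose activity T3 inhibits. In developing brain the hormone is known for its part in neuronal migration, in the timing of progenitor differentiation and in the maturation of oligodendrocytes.

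*Crym* (ENSMUSG00000030905) lies on the minus strand of chromosome 7 at 120186380-120202111 in mm10, with 3391 bases of exon. The start of its coding sequence is shown because a single read is 75 bases long and such a stretch is what assigns a read to *Crym*. Of the 3384 windows of 75 bases in its transcripts, 0 occur in another annotated gene. Bases 1 to 150 of the coding sequence of 942 bases (GENCODE transcript ENSMUST00000033198, mm10), with the start codon in capitals, read as follows.
Crym: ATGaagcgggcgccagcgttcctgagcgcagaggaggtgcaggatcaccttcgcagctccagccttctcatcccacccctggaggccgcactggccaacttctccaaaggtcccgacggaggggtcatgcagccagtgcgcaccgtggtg

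The 3 deiodinases share one unusual feature, an in-frame TGA that is read as selenocysteine, the residue at which they remove iodine. The bases around it are shown because the genes are close relatives and a reader may ask whether their reads can be told apart. The bases are from the coding strand of GENCODE transcripts, and the in-frame TGA stands in capitals, as codon 126 of *Dio1*, codon 130 of *Dio2* and codon 170 of *Dio3*.
Dio1: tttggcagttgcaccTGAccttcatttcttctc
Dio2: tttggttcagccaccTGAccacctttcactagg
Dio3: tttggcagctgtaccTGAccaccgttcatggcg
These 33 bases resemble one another, yet no window of 75 bases is shared among the 3 genes. *Dio2* shares 26 of its 5741 windows (0.453%) with the opposite-strand gene *Gm26512*, and *Dio1* and *Dio3* share 0 with any gene.

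*Crym* mRNA was at a low level in the controls and abundant in the Sox9-labelled libraries. The control libraries held 41, 2 and 26 counts, or 3.90, 0.173 and 2.64 CPM, and the Sox9-labelled libraries held 2271, 2907, 937 and 935 counts, or 310.8, 273.7, 104.4 and 195.4 CPM. The groups were far apart, and the lowest library labelled Sox9 (replicate 3) stood above the highest control library (replicate 1). Control replicate 2, the most deeply sequenced library, held fewer than 3 counts of *Crym*. The mean was 2.24 ± 1.90 CPM (SD, n = 3) against 221.1 ± 91.5 CPM (SD, n = 4), and the fitted log2 difference was 6.65 (a fold of 100.5). Without control replicate 2 it was 6.07, without control replicate 1 it was 7.35, and no other single library moved it outside this range. Since these are bulk samples, a different share of *Crym*-expressing cells and a different amount of *Crym* mRNA per cell cannot be told apart. In the deposited FPKM, *Crym* was at 0.225, 0.01 and 0.158 in the controls and at 21.7, 17.6, 7.28 and 13.4 in the Sox9-labelled libraries.

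**Figure D1:**
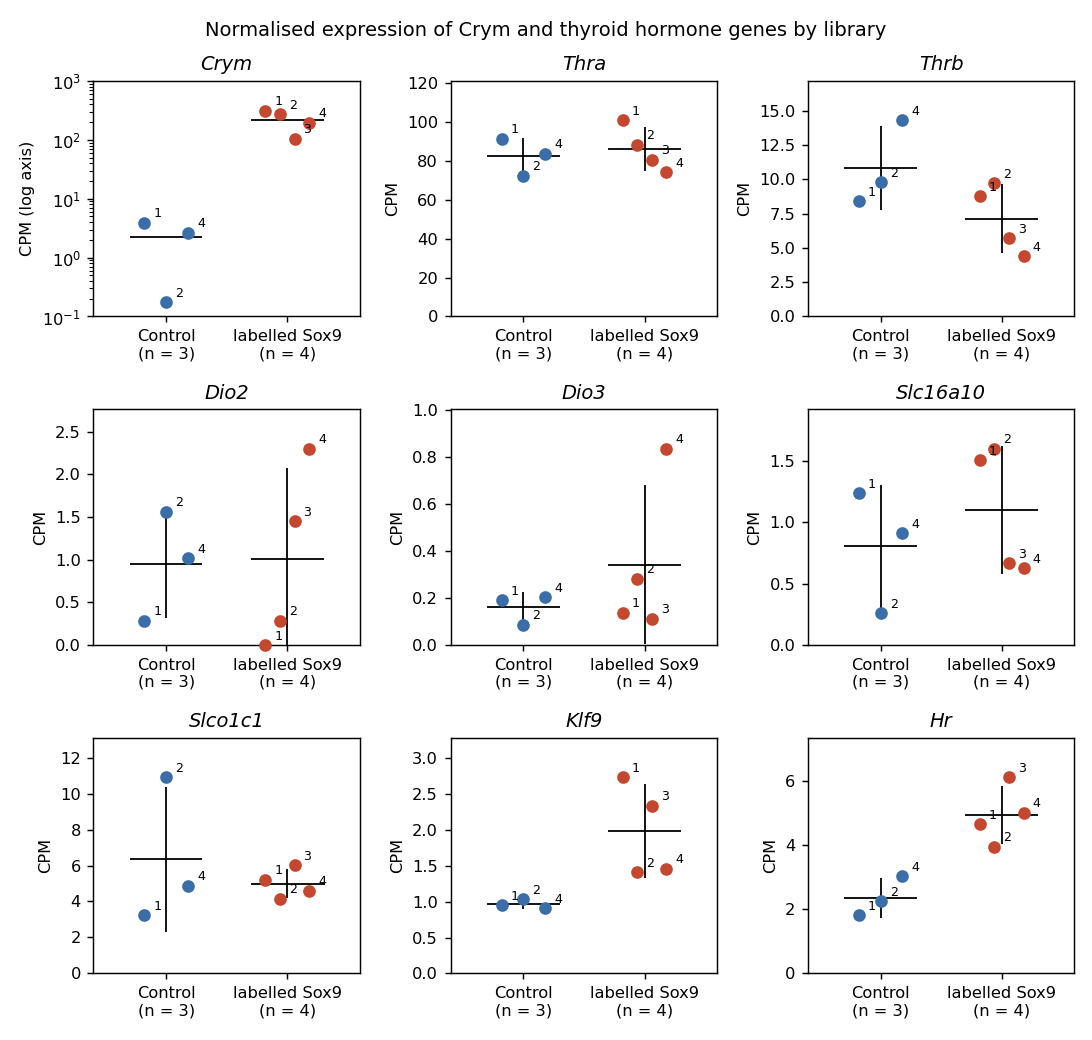
Each panel plots the CPM of 1 gene in the 3 control libraries (blue) and the 4 libraries labelled Sox9 (red), numbered by replicate, with a horizontal line at the group mean and, except for *Crym*, a vertical line of 1 SD to either side. The axis is logarithmic for *Crym*, whose libraries labelled Sox9 sit between 104.4 and 310.8 CPM, and linear from 0 for the others. *Klf9* and *Hr* are the only other panels in which the groups do not overlap. Of all genes tested, 22.9% had the Sox9-labelled libraries above without overlap and 16.4% had them below.

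The place of *Crym* within each library changed with its level. Ranked by CPM, it was gene 10079, 18183 and 11032 in the controls and gene 434, 607, 1739 and 883 in the Sox9-labelled libraries. Of all counts on the 9 genes, *Crym* took 3.51%, 0.176% and 2.36% in the controls and 71.5%, 71.4%, 50.4% and 67.7% in the Sox9-labelled libraries. The fitted difference of *Crym*, which chose it, was the largest of the 9794 genes with a mean of at least 50 normalised counts, and the nearest gene outside that choice was *Padi2*, an enzyme that converts arginine to citrulline, at 5.93. Over all 16522 genes tested 4 had a larger one, all with an average log2 CPM of at most 1.34, where that of *Crym* was 6.99.

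The libraries labelled Sox9 also differed among themselves in *Crym* more than in most genes. Its highest value there was 2.98 times its lowest, and the SD of its log2 CPM over the 4 libraries was 0.70. The median SD of the 1229 tested genes within 0.5 of its average log2 CPM was 0.168, and 99.4% of them had a smaller SD than *Crym*.

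Genes that followed *Crym* across the 7 libraries were sought among the same 9794 genes, by Pearson correlation of log2(CPM + 0.1). The 5 highest were *Padi2* (0.996), *Mertk* (0.991), *Gprc5c* (0.988), *Fbxl21* (0.988) and *Vps13c* (0.986), each of them with a higher mean in the Sox9-labelled libraries. After the mean of each group was subtracted, the 5 highest were *Tmem135* (0.992), *Dctn3* (0.983), *Zfp944* (0.982), *8430429K09Rik* (0.978) and *Tbc1d9b* (0.976). The 2 lists share no gene. Only 3 of the other thyroid hormone genes reached the count minimum, and with group means removed *Thra* correlated at 0.728, *Thrb* at 0.261 and *Slco1c1* at -0.941. The same correlations on levels were 0.404, -0.509 and -0.460, so that *Thrb* changed sign between the measures. These values describe 7 libraries of unequal depth, among them control replicate 2 with its 2 counts of *Crym*, and carry no test.

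None of the other thyroid hormone genes passed the test between the groups. Of the 8 besides *Crym*, 7 had enough counts to be tested, and 0 had an edgeR adjusted p under 0.01, where 11.3% of all genes tested passed as higher under the Sox9 label and 3.43% as lower. By DESeq2 the number was also 0, beside 11.5% of genes higher and 7.9% lower, and by limma after cyclic loess scaling it was 0, beside 2.04% and 1.6%. At an unadjusted p under 0.05 there were 2, *Klf9* and *Hr*, both higher, beside 26.8% of all genes tested in the higher and 17.3% in the lower direction. At an adjusted p under 0.05 there was 1, *Hr*, beside 21.9% higher and 10.8% lower, and in 8 of 16 alternative fits *Hr* did not pass at that threshold either. The median log2 fold change of the 7 genes was 0.06, and that of all genes tested was -0.0031. The p-values measure the spread between these libraries, each a pool of embryos.

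The receptors are ligand-dependent transcription factors, and *Thra* encodes the form that prevails in developing brain. *Thra* (ENSMUSG00000058756, chromosome 11, 98740638-98769006, plus strand) differed little across the libraries. It was at 91.2, 72.3 and 83.6 CPM in the controls and at 100.7, 88.1, 80.4 and 74.2 CPM in the Sox9-labelled libraries, and the groups overlapped. Its mean was 82.4 ± 9.49 (SD, n = 3) against 85.9 ± 11.4 CPM (SD, n = 4), and its log2 fold change of 0.06 (95% interval -0.23 to 0.35, edgeR adjusted p = 0.759) stays within 1 log2 unit of no change. *Thra* shares 263 bases of exon with *Nr1d1*, a circadian repressor on the opposite strand, which is 195 of its 4671 windows of 75 bases (4.17%). Whether reads were counted by strand is not given in the sources used here. *Nr1d1* itself was at 14.1 ± 2.43 and 14.1 ± 3.39 CPM in the 2 groups (log2 fold change 0.01).

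*Thrb* (ENSMUSG00000021779, chromosome 14, 17660261-18038090, plus strand), the receptor gene that rises later in brain development, was at a lower level. It was at 8.38, 9.79 and 14.3 CPM in the controls and at 8.76, 9.70, 5.68 and 4.39 CPM in the Sox9-labelled libraries. The 2 lowest values were in the Sox9-labelled libraries, but the groups overlapped. The mean was 10.8 ± 3.09 (SD, n = 3) against 7.13 ± 2.51 CPM (SD, n = 4), and the log2 fold change of -0.58 (95% interval -1.21 to 0.06) did not pass (edgeR adjusted p = 0.151). Without control replicate 4 it was -0.31. Per base of exon, *Thra* exceeded *Thrb* by a ratio of 17.5, 11.9 and 9.39 in the controls and 18.5, 14.6, 22.7 and 27.1 in the Sox9-labelled libraries, which overlap. This ratio assumes that the counts are exonic, and the use of introns in counting is not given in the sources used here.

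Deiodinases set how much active hormone a cell holds, *Dio2* by turning T4 into T3 and *Dio3* by inactivating both. *Dio2* (ENSMUSG00000007682, chromosome 12, 90724552-90738438, minus strand) held 3, 18 and 10 counts in the controls and 0, 3, 13 and 11 in the Sox9-labelled libraries. In CPM these were 0.286, 1.56 and 1.01 against 0, 0.282, 1.45 and 2.30, so that the highest and the lowest library were both labelled Sox9. The log2 fold change was -0.06 with a 95% interval from -1.80 to 1.68 (edgeR adjusted p = 0.964), which holds both a 3-fold fall and a 3-fold rise. After cyclic loess scaling it was -2.35 (limma adjusted p = 0.139). The 0 counts in replicate 1 labelled Sox9 allow a level of up to 0.411 CPM. *Dio3* (ENSMUSG00000075707, chromosome 12, 110279068-110281097, plus strand, a single exon) held 2, 1 and 2 counts in the controls and 1, 3, 1 and 4 in the Sox9-labelled libraries. It was removed by the filter on low counts, and since 6 of the 7 libraries were at or under 3 counts no fold is given.

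Transporters were measured with few counts as well. *Slco1c1* (ENSMUSG00000030235, chromosome 6, 141524368-141570177, plus strand), which encodes a T4 transporter of brain capillaries and astrocytes, was at 3.24, 10.9 and 4.87 CPM in the controls and at 5.20, 4.14, 6.02 and 4.60 CPM in the Sox9-labelled libraries. The libraries labelled Sox9 lay close together, inside the range of the control libraries, and control replicate 2 stood above all others. Its log2 fold change was -0.35 (95% interval -1.15 to 0.46, edgeR adjusted p = 0.509), and 0.30 without control replicate 2. *Slc16a10* (ENSMUSG00000019838, chromosome 10, 40033532-40142258, minus strand), a transporter of T3, T4 and aromatic amino acids, held 13, 3 and 9 counts against 11, 17, 6 and 3. The groups overlapped, and the log2 fold change was 0.50 (95% interval -0.75 to 1.76, edgeR adjusted p = 0.546), and -1.09 after cyclic loess scaling.

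Both target genes were higher in every library labelled Sox9 than in any control library, as were 22.9% of all genes tested. By edgeR they differed by about the same amount, but neither passed at an adjusted p under 0.01. *Hr* (ENSMUSG00000022096, chromosome 14, 70552212-70573548, plus strand) encodes Hairless, a corepressor that T3 induces in brain and that binds the thyroid hormone receptors. It was at 1.81, 2.25 and 3.04 CPM in the controls and at 4.65, 3.96, 6.13 and 5.02 CPM in the Sox9-labelled libraries. The mean was 2.37 ± 0.624 (SD, n = 3) against 4.94 ± 0.907 CPM (SD, n = 4), on counts of 19, 26 and 30 against 34, 42, 55 and 24. The log2 fold change was 1.06 (SE 0.35, 95% interval 0.32 to 1.80), with an edgeR unadjusted p of 0.00829 and an adjusted p of 0.0313, above the threshold of 0.01. After cyclic loess scaling it was 0.49 (limma adjusted p = 0.331).

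*Klf9* (ENSMUSG00000033863, chromosome 19, 23141226-23168134, plus strand) encodes a zinc finger transcription factor that T3 and glucocorticoids induce in neural cells. Its counts were 10, 12 and 9 in the controls and 20, 15, 21 and 7 in the Sox9-labelled libraries, or 0.953, 1.04 and 0.912 CPM against 2.74, 1.41, 2.34 and 1.46 CPM. The mean was 0.968 ± 0.0648 (SD, n = 3) against 1.99 ± 0.656 CPM (SD, n = 4). The log2 fold change was 1.03 (SE 0.45, 95% interval 0.06 to 2.00, edgeR unadjusted p = 0.0385, adjusted p = 0.0934), and after cyclic loess scaling it was -0.30. The miRNA gene *Mir1192*, which lies inside the span of *Klf9* on the same strand but shares no exonic base with it, held 0, 1 and 0 counts against 4, 7, 4 and 0.

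Of the 8 genes besides *Crym*, whose separation follows from its choice, *Klf9* and *Hr* were the 2 whose groups did not overlap. Among all genes tested 22.9% had the Sox9-labelled libraries above without overlap and 16.4% had them below. The shares called also depended on the level of a gene. Of the 3292 genes with an average log2 CPM under 1, 20.6% were called higher and 0.0911% lower (median log2 fold change 1.55). Of the 10068 genes between 1 and 6, the shares were 11.6% and 3.07% (median -0.00269), and of the 3162 genes above 6 they were 0.601% and 8.06% (median -0.26). *Klf9* fell in the lowest of these ranges and had a log2 fold change below its median. *Hr*, with an average log2 CPM of 1.98, lay above the median of the range from 1 to 6 but below that of the 5256 genes between 0 and 2, a range chosen after seeing the data (median 1.29, 22.5% called higher and 0.342% lower).

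**Figure D2:**
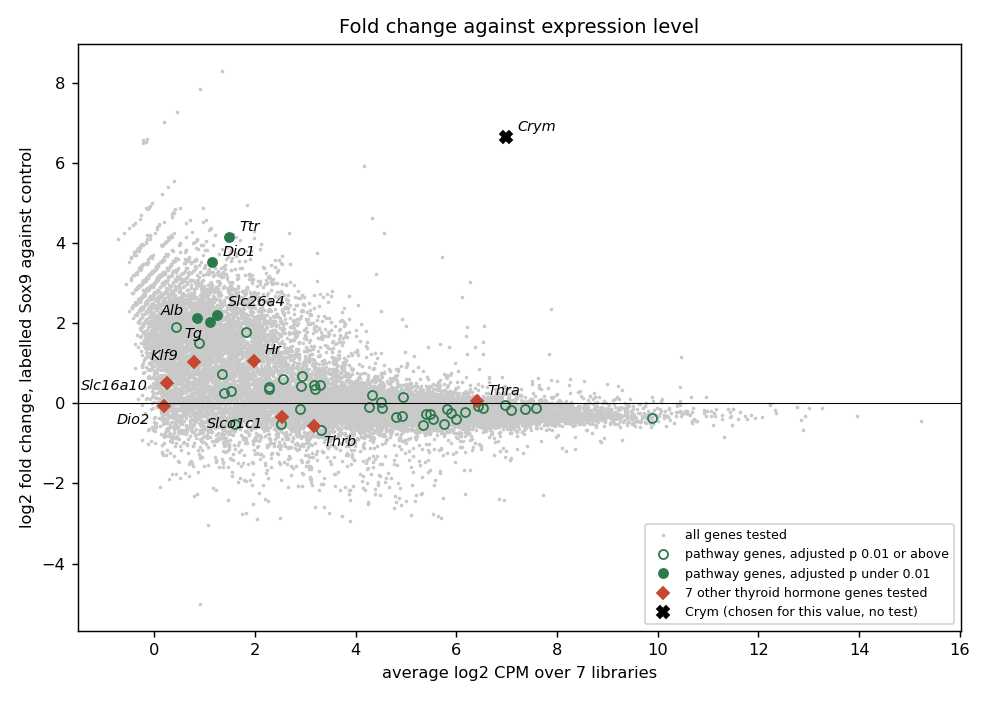
The vertical axis is the log2 fold change of the Sox9-labelled libraries against the control libraries, and the horizontal axis the average log2 CPM over all 7 libraries. Grey points are the 16522 genes tested, red diamonds the 7 other thyroid hormone genes tested, the cross *Crym*, and green circles the genes of a wider pathway list, filled where the edgeR adjusted p was under 0.01. *Crym* lies at an average log2 CPM of 6.99, and the filled circles lie at low levels, where many grey points are also above 0.

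Levels of different genes were compared per kilobase of exon, as CPM divided by exonic length. The order below therefore assumes that the counts are exonic, which the sources used here do not state. In the control libraries *Thra* was the highest (15.7 to 19.8), followed by *Thrb* (1.13 to 1.93), *Slco1c1* (0.624 to 2.10), *Crym* (0.0511 to 1.15), *Hr* (0.262 to 0.440), *Klf9* (0.190 to 0.216), *Dio2* (0.0491 to 0.268), *Slc16a10* (0.0353 to 0.168) and *Dio3* (0.0427 to 0.0999). *Thra* was separate from *Thrb*, and *Hr* from *Klf9*, while all other neighbours in this order had overlapping ranges. In the Sox9-labelled libraries *Crym* came first (30.8 to 91.7), above *Thra* (16.1 to 21.8) with no overlap. The order from *Thrb* down was kept for *Slco1c1*, *Hr*, *Klf9* and *Dio2*, and *Dio3* and *Slc16a10* changed places within overlapping ranges.

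The deposited FPKM give another order for the same genes. The length that links counts to FPKM was 0.953 to 1.00 times the whole span of each gene, introns included, which for *Thrb* was 50.9 times its exonic length and for the single-exon *Dio3* was the same. *Thrb*, second in the control libraries per base of exon, was therefore eighth of the 9 genes by FPKM in both groups. A comparison of 1 gene between libraries does not depend on this length.

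**Figure D3:**
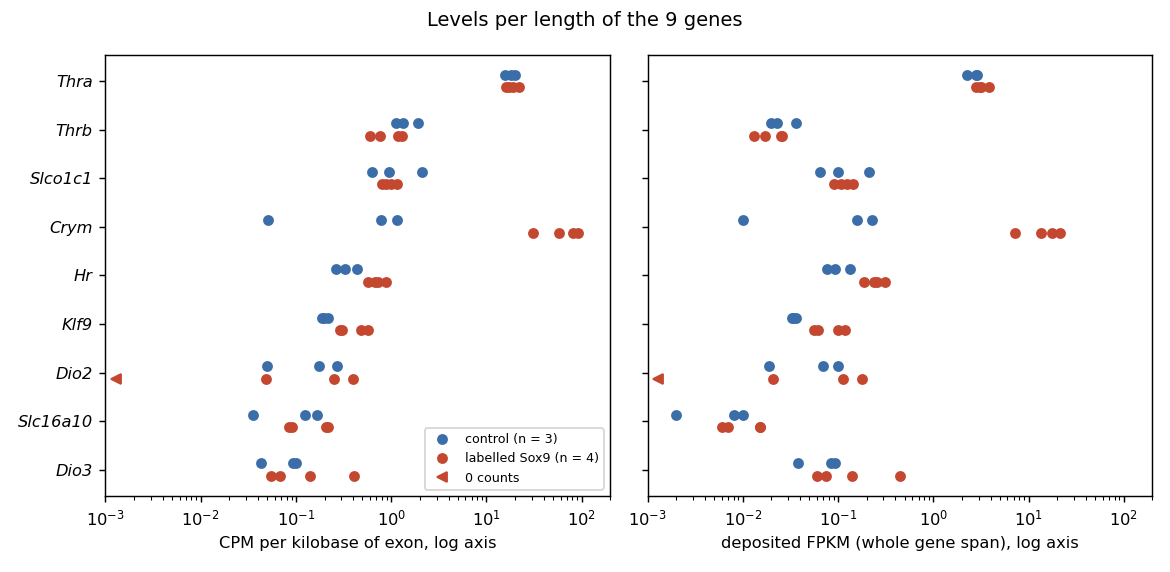
Each row is 1 of the 9 genes, with the 3 control libraries in blue and the 4 libraries labelled Sox9 in red, on logarithmic axes. The left panel gives CPM per kilobase of exon and the right panel the deposited FPKM, which use the whole gene span, and an arrowhead marks the library with 0 counts of *Dio2*. *Thrb* stands second from the top in the left panel and near the bottom of the scale in the right one, where its highest value was 0.036.

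The wider pathway was described with a list of 60 further genes in 8 roles, all of them in the count table. Of these, 46 were tested. At an edgeR adjusted p under 0.01, 5 of them passed as higher and 0 as lower, beside 11.3% and 3.43% of all genes tested. The median log2 fold change was -0.06 over the 46, with 22 above 0 and 24 below. All 5 genes called had an average log2 CPM between 0 and 2, a range in which 12 pathway genes and 5256 genes in all were tested. In that range 22.5% of all genes were called higher and 0.342% lower, and 5 of the 12 pathway genes were higher.

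Among the other genes of deiodination 1 of 6 was called higher, beside 11.3% of all genes tested. This was *Dio1* (ENSMUSG00000034785, chromosome 4, 107291465-107307169, minus strand), which encodes the deiodinase of liver, kidney and thyroid. It held 5, 0 and 4 counts in the controls and 32, 30, 41 and 9 in the Sox9-labelled libraries, and the groups did not overlap in CPM. Its log2 fold change was 3.53 (SE 0.66, edgeR adjusted p = 0.00194), with a mean of 0.294 ± 0.257 (SD, n = 3) against 3.41 ± 1.29 CPM (SD, n = 4). *Dio1* was called in each of the 7 fits that left out 1 library, with a log2 fold change of 2.93 without control replicate 2 and 4.07 without control replicate 1, but after cyclic loess scaling its log2 fold change was 1.95 and it was not called (limma adjusted p = 0.0407). It was also not called with the replicate number of the titles as a block (edgeR adjusted p = 0.0178).

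Both tested carriers, proteins that hold the hormone in blood and cerebrospinal fluid, were called higher. They lay at an average log2 CPM between 0 and 2, where 22.5% of all genes were called higher. *Ttr*, which encodes transthyretin and is a marker of the choroid plexus, held 1, 6 and 1 counts against 54, 53, 14 and 23 (log2 fold change 4.16, edgeR adjusted p = 0.000867). *Alb*, the gene of serum albumin, held 9, 6 and 3 counts against 25, 29, 17 and 9 (2.12, adjusted p = 0.0069). *Ttr* was called in each of the 7 fits without 1 library and *Alb* in 2 of them, and neither was called after cyclic loess scaling. *Alb* was also not called with the replicate number of titles or descriptions as a block.

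Of the 5 tested genes of hormone synthesis, which are known from the thyroid gland, 2 were called higher. All 5 lay at an average log2 CPM between 0 and 2, where 22.5% of all genes were called higher. *Tg*, the gene of the thyroglobulin scaffold, held 9, 3 and 11 counts against 22, 21, 36 and 15 (log2 fold change 2.02, edgeR adjusted p = 0.0095). *Slc26a4*, the gene of the anion exchanger pendrin, held 5, 4 and 14 counts against 13, 42, 32 and 22 (2.21, adjusted p = 0.0079). Of the 7 fits without 1 library, *Slc26a4* was called in 2 and *Tg* in 1, and neither was called after cyclic loess scaling. Neither was called with the replicate number of titles or descriptions as a block. The other 5 genes of this role, *Duox2*, *Duoxa2*, *Iyd*, *Foxe1* and *Nkx2-1*, had too few counts to be tested.

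No gene was called in the remaining 5 roles, and the member with the smallest p of each is given here. Among 5 other transporters it was *Slco1a4* (log2 fold change 1.51, edgeR adjusted p = 0.0291), and among 15 tested coregulators and partners of the receptors it was the mediator subunit *Med1* (-0.37, adjusted p = 0.0223). Among 7 tested other target genes it was *Thrsp*, a regulator of lipid synthesis (0.60, adjusted p = 0.141). *Itgav*, whose integrin binds T4 at the cell surface, was the 1 tested gene of its role (0.43, adjusted p = 0.262). In lysine and ketimine metabolism, the pathway of the enzymatic activity of mu-crystallin, it was *Aass*, the first enzyme of lysine breakdown, at 1.40 ± 0.805 (SD, n = 3) against 4.79 ± 1.94 CPM (SD, n = 4), a log2 fold change of 1.78 with an edgeR adjusted p of 0.0103. *Aass* passed as higher by DESeq2, with library totals, without a filter and in 2 of the 7 fits without 1 library. Its average log2 CPM was 1.82, and between 0 and 2 22.5% of all genes were called higher. Of the 5 tested genes of its role, 2 were above 0 and 3 below. *Aldh7a1* of that role, named after its value was seen, was at -0.53 (edgeR adjusted p = 0.013). *Med1* passed as lower by DESeq2 and without a filter.

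**Figure D4:**
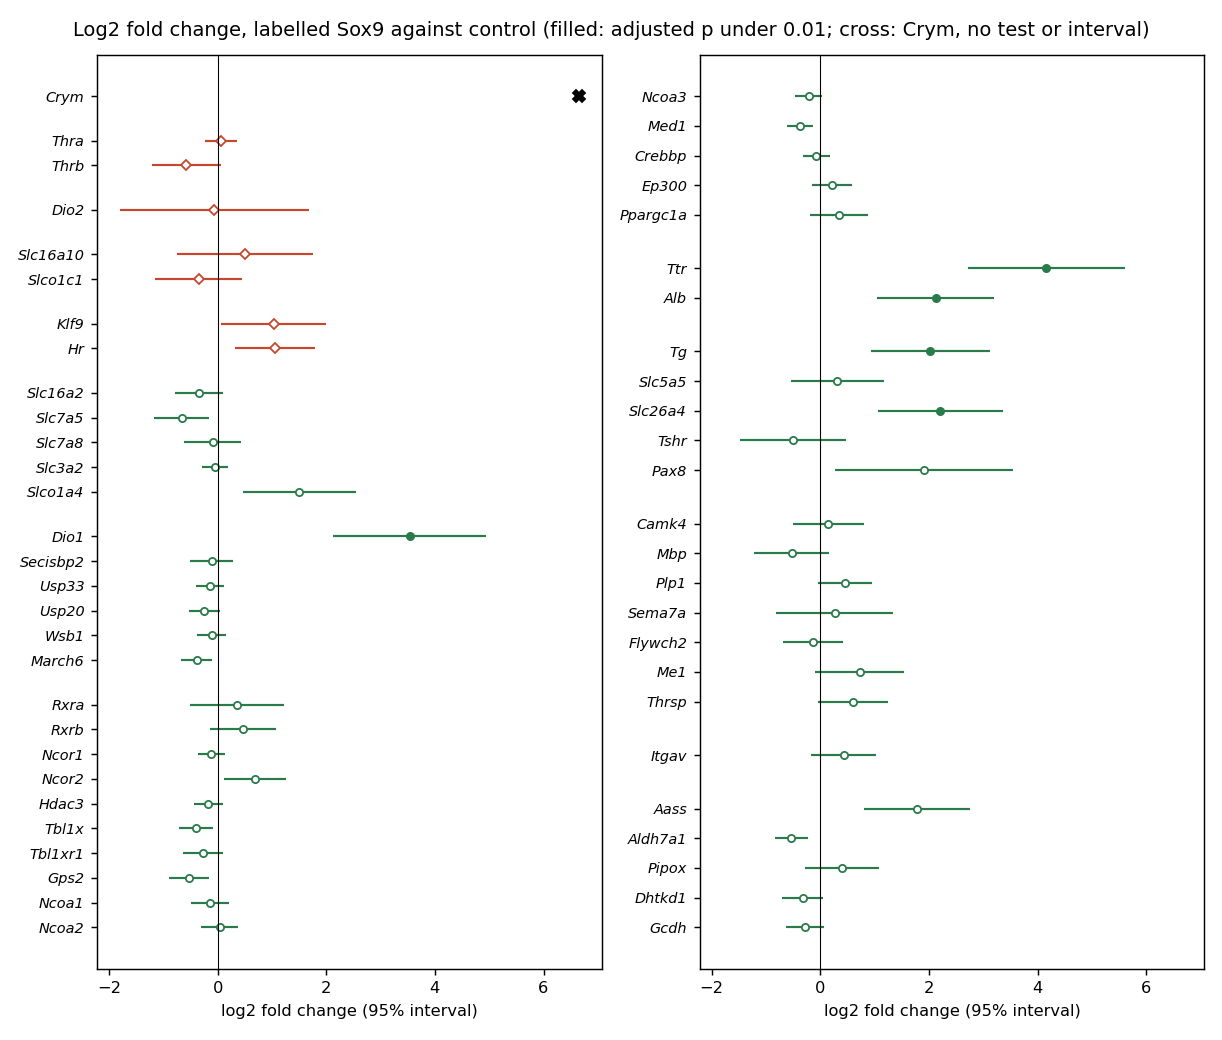
Points are log2 fold changes of the Sox9-labelled libraries against the control libraries and lines their 95% intervals, in red for the 7 other thyroid hormone genes tested, in green for the 46 tested genes of the pathway list, grouped by role, and a black cross without an interval for *Crym*. Filled circles have an edgeR adjusted p under 0.01, and all 5 of them, *Dio1*, *Ttr*, *Alb*, *Tg* and *Slc26a4*, lie above 0, while the intervals of *Klf9* and *Hr* lie above 0 with open symbols.

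Markers of other cell types were read in the same libraries, since several genes of the axis are also known from such cells. Most tested markers of the endothelial, choroid plexus, mural and meningeal, oligodendrocyte precursor and striatal lists had an average log2 CPM between 0 and 2, where 22.5% of all genes were called higher, and over all genes tested, whatever their level, 11.3% were called higher and 3.43% lower. The sum of 8 choroid plexus markers, *Ttr* among them, was 2.00 to 2.94 CPM in the controls and 12.7 to 20.1 CPM in the Sox9-labelled libraries, with 2 of 5 tested markers called higher. The sum of 8 endothelial markers was 5.52 to 13.4 against 20.1 to 49.9 CPM, with 2 of 7 called higher, and the sum of 7 mural and meningeal markers was 7.53 to 10.6 against 14.3 to 27.1 CPM, with 1 of 6 called higher. The part of these cell types in the values of *Crym*, *Hr*, *Klf9*, *Dio1* and *Ttr* was not tested.

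Oligodendrocyte precursor markers (the 5 of 6 listed genes that were matched) summed to 0.608 to 1.39 CPM in the controls and 9.47 to 22.7 CPM in the Sox9-labelled libraries, with all 4 tested markers called higher. Striatal neuron markers (7 genes) summed to 6.24 to 13.9 against 15.1 to 24.4 CPM with 1 of 4 called higher. Astrocyte markers (9 genes) summed to 333 to 668 against 140 to 192 CPM, with 2 of 7 called higher and 3 lower. Over all genes tested, whatever their level, 11.3% were called higher and 3.43% lower. Deep-layer neuron markers (6 genes) summed to 289 to 596 against 478 to 698 CPM, with 0 of 6 called and overlapping groups. The sums of 6 microglia markers (8.29 to 27.3 against 11.7 to 48.7 CPM) and of 6 erythroid markers (2.10 to 24.4 against 13.3 to 92.9 CPM) overlapped between the groups, each with 1 marker called higher, of 6 and 5 tested. No matched marker was at 0 in all 7 libraries, and the part of these cell types in the level of *Crym* was not tested.

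**Figure D5:**
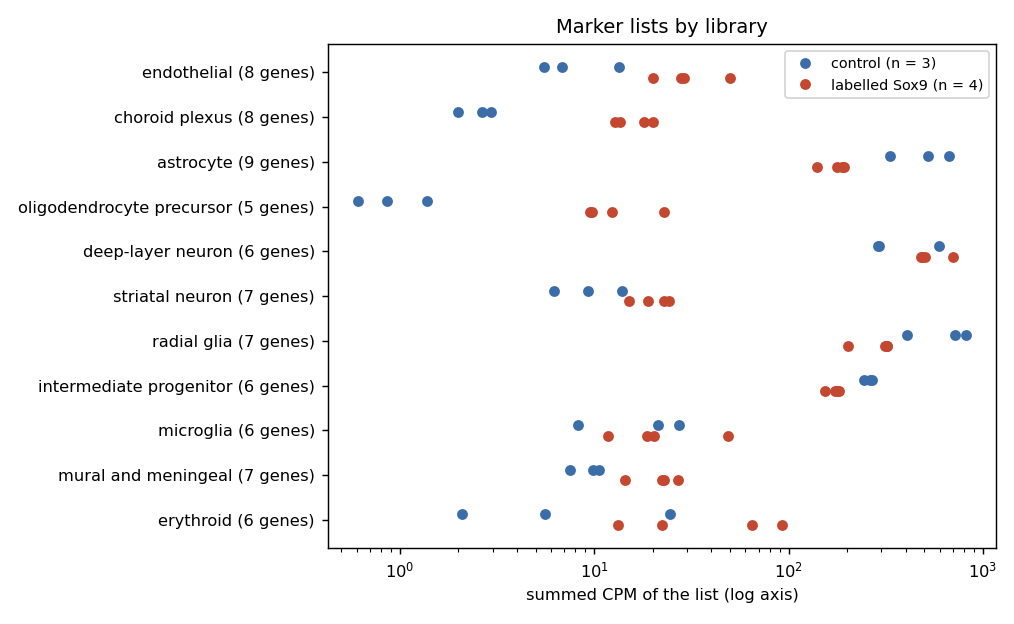
Each row is a list of marker genes, and each point the CPM of the list summed in 1 library, on a logarithmic axis, in blue for the 3 control libraries and red for the 4 libraries labelled Sox9. The endothelial, choroid plexus, oligodendrocyte precursor, striatal neuron, and mural and meningeal sums lie higher in every library labelled Sox9, and the astrocyte, radial glia and intermediate progenitor sums lie lower.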

How the data were processed

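RNA was amplified from poly-dT primed, template-switched cDNA and sequenced as 75-base single reads. The authors demultiplexed with bcl2fastq 2.17.1.14, trimmed with cutadapt and aligned to mm10 with STAR 2.5.2b. They deposited raw whole-number counts per Ensembl gene, without molecular identifiers, and FPKM values, scaled by gene length and library size. The counting program and its use of strand and introns are not given in the sources used here.

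Counts of all 7 libraries were tested with edgeR 4.0.16 (R 4.3.3): TMM scaling, filterByExpr, quasi-likelihood test, two-sided, no covariate, Benjamini-Hochberg over 16522 genes, threshold 0.01. Alternatives used limma 3.58.1 (cyclic loess) and DESeq2 1.42.0, other scalings and filters, replicate blocks and each library left out in turn. CPM use TMM-scaled library sizes, and intervals cover the spread between libraries. Symbols, coordinates and sequences came from the GENCODE annotation of GRCm38 (mm10), which held 36345 of the 38124 identifiers. All member genes, the called or lowest-p pathway genes of each role, the 5 nearest genes to *Crym* under each measure and overlapping genes were named. Members and lists were chosen with earlier results of these data known. One further pathway gene is not reported here and enters no count of the list. The code was checked on simulated data. Summaries were made in Python 3.11.15 (pandas 2.3.3, numpy 2.4.6) and plots with matplotlib 3.10.9.

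Groups and replicate numbers follow the titles, and the control libraries carry different numbers in titles (1, 2 and 4) and descriptions.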

Additional observations from a re-analysis of the deposited data

How the results depend on the processing

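Of the 8 genes besides *Crym*, 0 were called lower under any of 17 alternatives and 0 higher under 16, and 1, *Hr*, was called higher at an adjusted p under 0.05. At that threshold *Hr* was lost by cyclic loess, without a filter, with either replicate block and without control replicate 1 or 2 or Sox9 replicate 1 or 3. The log2 difference of *Crym* stayed between 6.07 (without control replicate 2) and 7.35 (without control replicate 1) in the 15 alternatives that gave a value, *Hr* between 0.49 and 1.29 (adjusted p 0.0161 to 0.331) and *Thrb* between -0.76 and -0.31 in 16 each. Values that changed sign, none of them called, were *Thra* with DESeq2's size factors (-0.02), by DESeq2 (-0.02), without a filter (-0.03) and without 1 library (-0.02 without control replicate 2, to 0.14), *Dio2* with library totals (0.18) and without 1 library (-0.67 to 0.51, with 0.00 without control replicate 4), *Slc16a10* (-1.09) and *Klf9* (-0.30) by cyclic loess, and *Slco1c1* without 1 library (-0.68 to 0.30, the latter without control replicate 2). The pathway genes called higher were 0 by cyclic loess and 0 with at least 10 counts in every library, a filter that left 37 of them, beside 5 in the reported test, and 2 to 4 with 1 library left out, the 2 being without control replicate 2 or Sox9 replicate 3, and 3 each without control replicate 4 or Sox9 replicate 1 or 2. They were 6, with *Aass* added, by DESeq2, with library totals and without a filter. Those called lower were 1 (*Aldh7a1*) with DESeq2's size factors, 3 (*Aldh7a1*, *March6*, *Med1*) by DESeq2, 3 (*Aldh7a1*, *Gps2*, *Med1*) without a filter and 5 (with *March6* and *Slc7a5*) at an adjusted p under 0.05, genes named after their values were seen. At that last threshold 7 passed as higher, with *Aass* and *Slco1a4* added, and over all genes tested 21.9% passed as higher and 10.8% as lower. The cause of these changes was not tested.

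Over all genes tested, 1862 were called higher and 567 lower, and 76.7% of called genes were higher. That share was 65.6% with DESeq2's size factors (951 lower), 91.5% with library totals (226 lower) and 56.1% by cyclic loess (337 higher and 264 lower). It was 59.3% by DESeq2 (1421 lower) and 64.7% without a filter (1452 lower). Over the same 16522 genes the median log2 fold change was -0.09 with DESeq2's size factors and 0.22 with library totals. It was 0.54 by DESeq2 and 0.51 without a filter, fits that also covered genes under the count filter (32483 genes without a filter). With at least 10 counts in every library 639 were called higher and 204 lower. Without 1 library, between 827 and 1584 genes were called higher and between 208 and 475 lower, the fewest in both directions without control replicate 2. Libraries of the same number deviated together at correlations of only -0.0247, 0.118 and 0.00742, so the numbers are not taken as pairs. With the replicate number of the titles as a block, 400 genes were called higher and 218 lower, with 1 of the pathway list (*Ttr*, while *Dio1* had an adjusted p of 0.0178), and *Dio2* was at -0.76. With that of the descriptions as a block these were 1034 and 353, with 2 of the list (*Dio1*, *Ttr*), and *Dio2* was at -1.02. Low counts limit *Dio3*, which was fitted only without a filter and by DESeq2.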
